A study of Mus musculus with 54 samples.

Results

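RNA from livers of RE mice collected at ZT12 was compared with RNA from livers of WT mice collected at ZT12, gene by gene. ZT counts hours after lights on, so ZT12 falls at lights off, when mice start their active and feeding phase. RE mice carry a Bmal1 allele (gene symbol Arntl) with a floxed STOP sequence together with Syt10-Cre, which by design restores Bmal1 in the suprachiasmatic nucleus, where the master clock of the brain lies, and leaves the liver without it. WT mice express Bmal1 in all tissues. KO mice, given beside a few results, carry the STOP allele and no Cre. The members are the 3 libraries labelled RE and ZT12 and the 3 labelled WT and ZT12, which make 6 of the 54 libraries of the series, and 10932 of the 24346 genes in the table were tested. Cre driven by the Syt10 promoter removes the STOP wherever that promoter has been active, and which cells of these animals that covers was not measured here. For age, sex, strain and feeding, nothing was given in the sources used here.

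The mammalian clock is a transcription loop. BMAL1 pairs with CLOCK or NPAS2, binds E-boxes in DNA, and drives the Period and Cryptochrome genes, whose products shut BMAL1 and CLOCK down. In a second loop the same pair drives the REV-ERB receptors (Nr1d1 and Nr1d2), which repress Arntl, Npas2, Cry1 and Nfil3 through elements that the ROR receptors use to activate them. The pair also drives the PAR bZIP factors DBP, TEF and HLF, which bind D-boxes in genes for detoxification and metabolism. In liver, feeding, insulin, glucocorticoids and body temperature act on many of the same genes, with or without the local loop.

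Values are FPKM, which relate the fragments of a gene to its length and to the size of the library. Differences are RE minus WT on the log2(FPKM + 1) scale, which understates changes of genes at low FPKM. A gene was called at a limma adjusted p under 0.05. Total FPKM was 687849 to 730440 in RE livers and 627640 to 652069 in WT livers. Pearson's correlation of log2 values over all tested genes was 0.980 to 0.988 between RE livers, 0.989 to 0.991 between WT livers and 0.962 to 0.966 between an RE and a WT liver. The Y-linked gene Ddx3y was detected in all 6 livers. Albumin (Alb), the main secreted protein of hepatocytes, had 12326, 10417 and 15511 FPKM in RE livers. It was listed at 0 in all 3 WT livers, while other hepatocyte genes were high in WT livers. Alb was at 0 in 21 of the 54 libraries, every WT library of the series among them, so its zeros go largely with the WT label. No fold is given for Alb or for 42 other genes, most of them small RNAs, that were listed at 0 in some libraries and above 5 FPKM in all others. The targeted gene, Arntl (chromosome 7, 113178471 to 113314126, mm10), had 8.01, 10.02 and 7.604 FPKM in RE livers, against 0.202, 0.563 and 0.538 FPKM in WT livers. Its level was higher in RE, so these FPKM values, which cover the whole gene, check nothing of the STOP sequence or of the protein.

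At ZT12, 2064 genes differed between RE and WT livers (18.9% of the 10932 tested), with 1052 higher in RE (9.62%) and 1012 lower (9.26%). The median size of the difference among them was 0.58 on the log2 scale, and the median difference of all tested genes was 0.01. A size of at least 1 was reached by 443 called genes, 212 higher and 231 lower. The 3 RE and 3 WT livers did not overlap in 4181 genes (38.2%), 2000 of them called. With FPKM rescaled to an equal total in each library, the median gene moved by -0.12 and the split became 628 higher and 1560 lower, 28.7% of the calls higher in place of 51.0%. Leaving out the genes listed at 0 before rescaling gave 693 higher and 1403 lower (33.1%). Differences of the size of that shift therefore depend on the scaling.

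**Figure D1:**
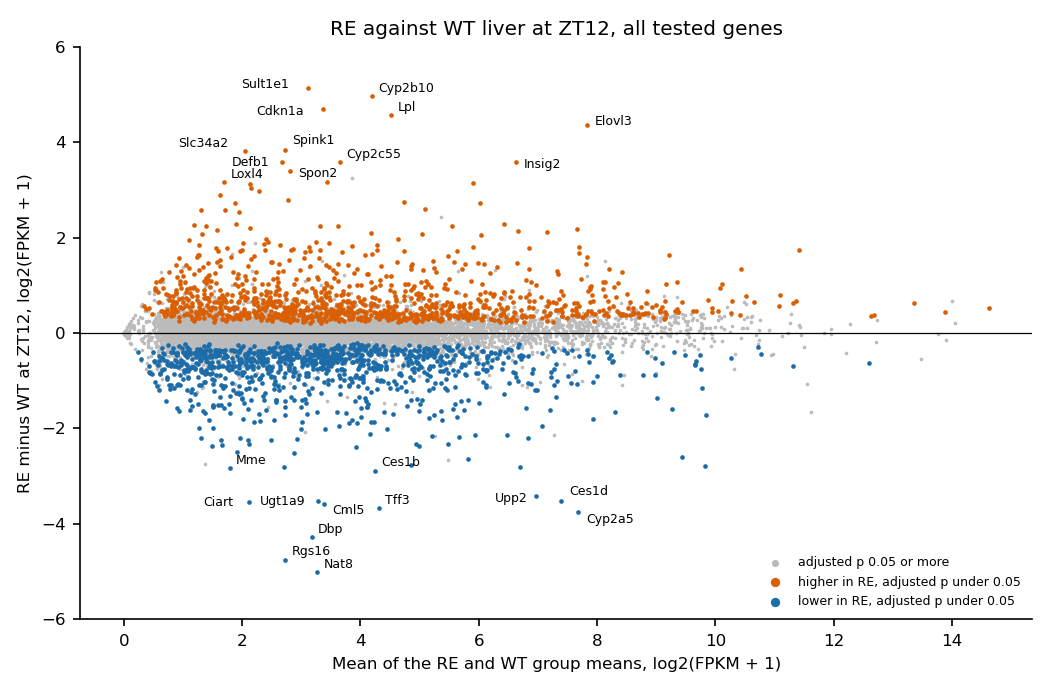
Each dot is 1 tested gene, without the genes listed at 0 in some libraries, with the mean of the RE and WT group means on the x axis and RE minus WT at ZT12 on the y axis, both in log2(FPKM + 1). Orange dots are genes called higher in RE and blue dots genes called lower, and the named genes are the 12 largest rises, led by Sult1e1 at 5.14, and the 12 largest falls, led by Nat8 at -5.01.

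The activating arm of the clock was higher in RE livers at ZT12. Of 5 activators 4 were called higher, among them Arntl, Clock and Npas2, and Rora had 0.15 (limma adjusted p = 0.6103). Against these 4 of 5, 9.62% of all tested genes were called higher. Arntl, with the levels given above, differed by 2.74 (log2, SE 0.17, limma adjusted p = 1.04e-15), and its 3 RE livers lay far above the 3 WT livers. Clock, the partner of BMAL1, had 5.79, 6.96 and 6.18 FPKM in RE livers, against 1.597, 2.33 and 2.16 FPKM in WT livers, with no overlap, and differed by 1.28 (log2, SE 0.18, limma adjusted p = 1.23e-06). Npas2, which can take the place of CLOCK, had 4.28, 5.001 and 6.105 FPKM in RE livers, whereas it was listed at 0.0309, 0 and 0 FPKM in WT livers. It differed by 2.59 (log2, SE 0.23, limma adjusted p = 2.70e-11).

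Most repressors were lower in RE livers. Of 11 repressors, 6 were called lower and 2, Cry1 and Nfil3, higher, against 9.26% and 9.62% of all genes. The list median was -0.69. Ciart, which encodes the repressor CHRONO, had 0.0522, 0.3502 and 0.426 FPKM in RE livers, against 19.6, 12.3 and 10.8 FPKM in WT livers and differed by -3.55 (log2, SE 0.16, limma adjusted p = 4.14e-20). Nr1d1, which encodes REV-ERB alpha, had 0.458, 1.72 and 0.874 FPKM in RE livers, against 13.2, 6.48 and 7.76 FPKM in WT livers and differed by -2.32 (log2, SE 0.23, limma adjusted p = 4.23e-10). Nr1d2, which encodes REV-ERB beta, had 0.883, 2.13 and 1.55 FPKM in RE livers, against 16.5, 15.7 and 16.9 FPKM in WT livers and differed by -2.81 (log2, SE 0.22, limma adjusted p = 6.69e-13). In these 3 genes the highest RE liver stood below the lowest WT liver.

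Of the 3 Period genes, Per3 alone was called. Per3 had 0.452, 0.4196 and 0.418 FPKM in RE livers, against 6.84, 5.59 and 5.09 FPKM in WT livers and differed by -2.25 (log2, SE 0.14, limma adjusted p = 4.51e-16). Per1, which also answers to glucocorticoids and other signals, had 5.84, 5.96 and 7.68 FPKM in RE livers, against 13.2, 6.86 and 10.8 FPKM in WT livers, and its difference of -0.56 did not pass the test (limma adjusted p = 0.3096). Per2 had 6.88, 3.16 and 3.68 FPKM in RE livers, against 7.41, 6.87 and 8.66 FPKM in WT livers and a difference of -0.69 (limma adjusted p = 0.0934), and it was called lower without RE liver 0 (log2 -0.97, adjusted p = 0.0289). For both, 1 RE liver lay above the lowest WT liver. Whether the Per3 difference exceeds those of Per1 and Per2 was not tested. Of the cryptochromes, Cry1 had 14.7, 20.9 and 15.6 FPKM in RE livers, against 5.41, 4.75 and 7.81 FPKM in WT livers and was higher in RE by 1.38 (log2, SE 0.22, limma adjusted p = 5.96e-06), while Cry2 had a difference of -0.05 (limma adjusted p = 0.883).

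Nfil3, the repressor E4BP4 that competes with the PAR bZIP factors for D-boxes, had 9.93, 26.7 and 11.1 FPKM in RE livers, against 4.73, 7.29 and 7.505 FPKM in WT livers. All RE livers stood above all WT livers (1.06, limma adjusted p = 0.00405), but RE liver 1 was much higher than the others and the call ended without RE liver 1 (log2 0.64, adjusted p = 0.0967). Bhlhe40, which encodes DEC1, had 29.5, 33.2 and 27.2 FPKM in RE livers, against 52.1, 50.7 and 55.7 FPKM in WT livers. It was lower in RE without overlap (-0.80, limma adjusted p = 0.0383), and that call ended without RE liver 0, RE liver 2, WT liver 0, WT liver 1 or WT liver 2 (adjusted p up to 0.1299). Bhlhe41, which encodes DEC2, was near the floor in RE livers, at 0.0264, 0 and 0 FPKM, against 0.484, 0.686 and 0.275 FPKM in WT livers (-0.55, limma adjusted p = 0.000516).

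**Figure D2:**
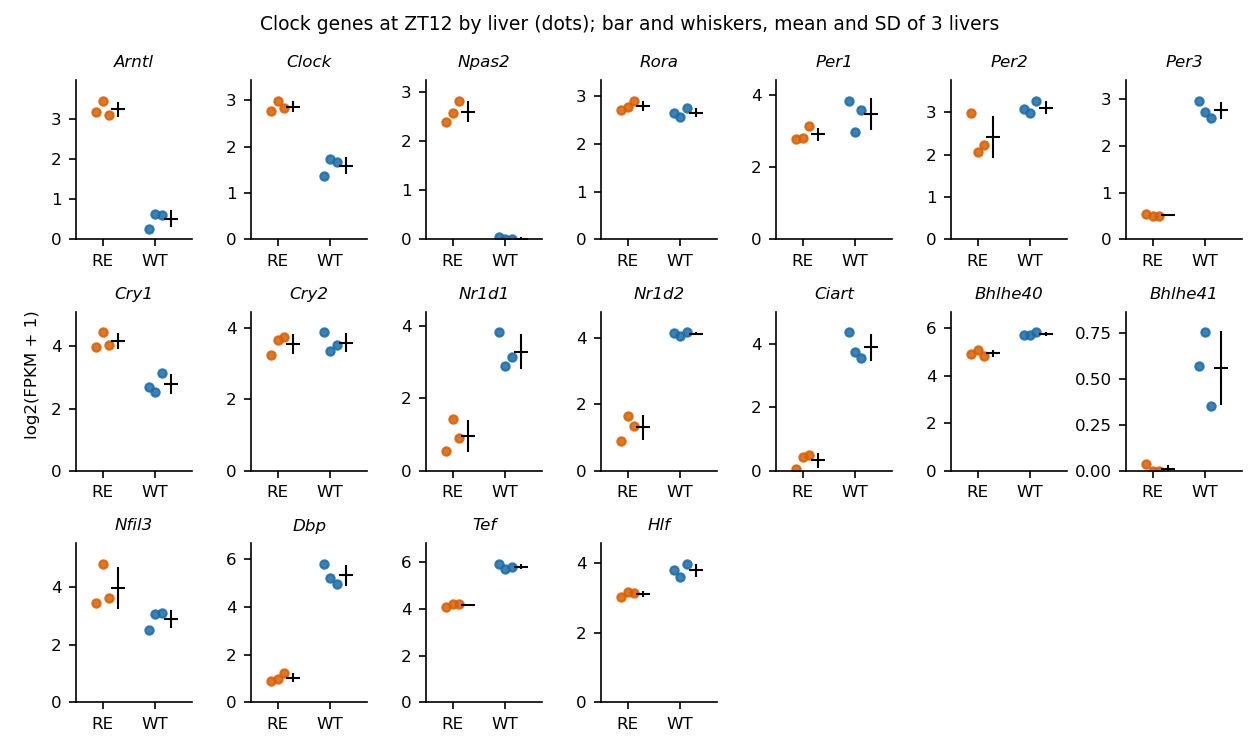
Each dot is 1 liver at ZT12, RE left and WT right, on a linear axis of log2(FPKM + 1) that starts at 0, with the mean and SD of the 3 livers beside the dots. RE livers stand above WT livers in Arntl, Clock, Npas2, Cry1 and Nfil3 and below them in Nr1d1, Nr1d2, Ciart, Per3, Bhlhe40, Bhlhe41, Dbp, Tef and Hlf, and the groups overlap in Rora, Per1, Per2 and Cry2.

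All 3 PAR bZIP factors were lower in RE livers, where 9.26% of tested genes were. Dbp had 0.849, 0.979 and 1.36 FPKM in RE livers, against 54.9, 35.8 and 29.9 FPKM in WT livers and differed by -4.28 (log2, SE 0.27, limma adjusted p = 7.68e-16). Tef had 16.03, 17.3 and 17.5 FPKM in RE livers, against 59.7, 51.01 and 54.004 FPKM in WT livers and differed by -1.64 (log2, SE 0.16, limma adjusted p = 1.88e-10). Hlf had 7.15, 8.12 and 7.82 FPKM in RE livers, against 13.03, 11.1 and 14.9 FPKM in WT livers and differed by -0.68 (log2, SE 0.15, limma adjusted p = 0.00111). The order of the differences was Dbp, Tef, Hlf, and in none of the 3 did an RE liver reach a WT liver.

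All 15 tested genes listed as clock output passed the test, 10 lower and 5 higher, against 9.26% and 9.62% of all genes. The list median was -1.83. The list was drawn up with earlier results of these data known, so its count is not independent evidence. Rgs16, a regulator of G protein signalling, had 0.588, 0.108 and 0.1897 FPKM in RE livers, against 52.7, 13.4 and 52.01 FPKM in WT livers and differed by -4.75 (log2, SE 0.81, limma adjusted p = 2.38e-05). WT liver 1 stood well below the other WT livers and still above every RE liver. Upp2, the uridine phosphorylase of liver, had 25.1, 62.6 and 33.2 FPKM in RE livers, against 451, 440.4 and 341 FPKM in WT livers (-3.41, limma adjusted p = 2.52e-08). Wee1, a kinase that holds cells before mitosis, had 1.395, 1.03 and 1.899 FPKM in RE livers, against 7.797, 6.93 and 8.92 FPKM in WT livers (-1.87, limma adjusted p = 4.07e-10). Usp2 (-1.83), Slc16a5 (-1.98), Gpcpd1 (-1.59) and Tspan4 (-1.20) were lower as well. The genes called higher were Elovl3 (4.36), Insig2 (3.60), Tubb2a (2.60), Leo1 (0.83) and Lonrf3 (0.49), and the call of Lonrf3 ended without RE liver 0, RE liver 2, WT liver 0 or WT liver 2 (adjusted p up to 0.1300).

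Promoter windows from RefSeq, 250 bases before to 50 after each gene's start on GRCm38.p6, were searched on both strands for the letters of the elements named above. A window was found for 27 of the 35 listed clock and clock output genes, 36 windows in all. The E-box CACGTG was present in 8 of these windows (22.2%) and in 7.15% of all 32851 windows. The 7 genes with it were Per1, Cry1, Ciart, Bhlhe41, Tef, Tspan4 and Lonrf3, of which Ciart, Bhlhe41, Tef and Tspan4 were called lower in RE, Cry1 and Lonrf3 higher, and Per1 neither. The D-box, TTATGTAA or TTACGTAA, was found in Per3 alone (2.78% of the 36 windows, against 1.06% of all). The ROR element, TAGGTCA or TGGGTCA, was found in Arntl, Nfil3, Insig2 and Leo1, 4 windows (11.1%, against 6.45% of all), and these 4 genes were called higher in RE. The 3 motifs share no letters at any match shown here. A match is a description of the sequence, and no factor's binding was measured in these livers. The stretches that hold matches before the start are shown for 4 clock genes called lower or higher above, 1 or more for each element, with the matches in capitals. The Nfil3 stretch precedes an internal start and lies inside the full span of the gene (chromosome 13, 52967209 to 52982878).
Ciart, chr3:95882237-95882374, minus strand, 3 E-boxes: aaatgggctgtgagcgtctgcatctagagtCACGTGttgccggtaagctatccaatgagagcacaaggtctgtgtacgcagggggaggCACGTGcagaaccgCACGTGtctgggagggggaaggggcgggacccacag
Tef, chr15:81802516-81802581, plus strand, 1 E-box: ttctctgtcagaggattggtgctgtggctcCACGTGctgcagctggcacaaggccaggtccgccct
Tef, second start, chr15:81811246-81811311, plus strand, 1 E-box: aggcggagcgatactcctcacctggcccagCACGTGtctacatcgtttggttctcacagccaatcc
Per3, chr4:151044786-151044900, minus strand, 2 D-boxes: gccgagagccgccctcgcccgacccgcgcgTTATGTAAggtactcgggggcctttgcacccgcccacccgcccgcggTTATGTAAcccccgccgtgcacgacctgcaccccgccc
Nfil3, chr13:52981040-52981081, minus strand, 1 ROR element on the opposite strand: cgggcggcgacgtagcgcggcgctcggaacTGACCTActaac
The 3 E-boxes of Ciart (-3.55) lie within 116 bases before its start. No E-box was found in the windows of Rgs16 (-4.75), Dbp (-4.28), Upp2 (-3.41), Nr1d2 (-2.81) and Nr1d1 (-2.32), which were also called lower. Whether a motif goes with the size of a difference was not tested, and the genes were listed with earlier results of these data known.

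The largest rises in RE livers included enzymes of steroid and drug metabolism, a lipase and a cell cycle inhibitor. Sult1e1, which sulphates oestrogens, had 30.8, 95.7 and 42.7 FPKM in RE livers, against 0.3703, 0.799 and 0.235 FPKM in WT livers and was higher, with a difference of 5.14 (log2, SE 0.79, limma adjusted p = 4.35e-06). Cyp2b10, the P450 that the receptor CAR induces, had 108, 109.7 and 89.1 FPKM in RE livers, against 2.66, 4.21 and 0.828 FPKM in WT livers and was higher, with a difference of 4.98 (log2, SE 0.52, limma adjusted p = 1.32e-09). Cdkn1a, which encodes the cell cycle inhibitor p21, had 49.1, 57.1 and 48.2 FPKM in RE livers, against 0.912, 0.982 and 1.17 FPKM in WT livers and was higher, with a difference of 4.70 (log2, SE 0.48, limma adjusted p = 7.64e-10). In all 3 genes the lowest RE liver was more than 20 FPKM above the highest WT liver. The largest rises and falls were taken only from called genes without overlap, so a separation of the groups follows from that choice.

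Lpl, lipoprotein lipase, which clears triglyceride from the blood and is low in adult liver, had 121, 99.95 and 113 FPKM in RE livers, against 3.37, 5.17 and 2.93 FPKM in WT livers and was higher, with a difference of 4.56 (log2, SE 0.27, limma adjusted p = 2.50e-16). Elovl3, which elongates long-chain fatty acids, had 966, 1147 and 975 FPKM in RE livers, against 53.5, 45.6 and 48.7 FPKM in WT livers and was higher, with a difference of 4.36 (log2, SE 0.44, limma adjusted p = 4.42e-10). Insig2, which holds the SREBP precursors in the endoplasmic reticulum, had 347, 321 and 362 FPKM in RE livers, against 27.4, 29.1 and 25.8 FPKM in WT livers and was higher, with a difference of 3.60 (log2, SE 0.23, limma adjusted p = 8.62e-16). The RE and WT livers were far apart in each, with narrow spreads in both groups, though these genes too were chosen without overlap. The other large rises were Spink1 (3.83), a protease inhibitor, the phosphate transporter Slc34a2 (3.82), the defensin Defb1 (3.58), Cyp2c55 (3.58), the matrix protein Spon2 (3.40) and the lysyl oxidase Loxl4 (3.17). Cyp2c genes share sequence, so the level of Cyp2c55 is uncertain.

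The largest falls included acetyltransferases, carboxylesterases and conjugating enzymes. Nat8, an N-acetyltransferase, had 0.902, 0.486 and 0.756 FPKM in RE livers, against 48.4, 65.2 and 49.6 FPKM in WT livers and was lower, with a difference of -5.01 (log2, SE 0.24, limma adjusted p = 3.12e-19). Cyp2a5, the mouse coumarin hydroxylase, had 45.3, 73.6 and 48.8 FPKM in RE livers, against 776, 766 and 720.0 FPKM in WT livers and was lower, with a difference of -3.76 (log2, SE 0.43, limma adjusted p = 8.77e-09). Tff3, a trefoil peptide, had 2.78, 6.75 and 4.88 FPKM in RE livers, against 29.2, 63.9 and 179 FPKM in WT livers and was lower, with a difference of -3.67 (log2, SE 0.78, limma adjusted p = 0.000586), with a wide spread among WT livers. Mme, the peptidase neprilysin, had 0.237, 0.352 and 0.305 FPKM in RE livers, against 8.63, 9.83 and 6.58 FPKM in WT livers and was lower, with a difference of -2.83 (log2, SE 0.14, limma adjusted p = 1.06e-18). No RE liver reached a WT liver in these 4 genes, which the rule for choosing the largest falls required. Cml5 (-3.58), Ces1d (-3.53), Ugt1a9 (-3.52) and Ces1b (-2.88) completed the 12 largest falls with Rgs16, Dbp, Ciart and Upp2. Nat8 and Cml5, the Ces1 genes, the Ugt1a genes and Cyp2a4 and Cyp2a5 belong to families that share sequence, so their single levels are uncertain.

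Fatty acid synthesis was the metabolic list with the most genes lower in RE livers at lights off. Of 21 members, 15 were called lower and 1 higher, against 9.26% and 9.62% of all genes. The list median was -1.34, against 0.01 for all genes tested. The enzymes of de novo synthesis were named after their values were seen. Srebf1, the insulin-driven master regulator SREBP1, had 28.8, 25.4 and 31.2 FPKM in RE livers, 38.5, 69.03 and 71.5 FPKM in KO livers and 113, 118 and 156 FPKM in WT livers, a difference of -2.13 (log2, SE 0.39, limma adjusted p = 7.18e-05). Fasn, fatty acid synthase, had 17.7, 27.04 and 20.5 FPKM in RE livers, 75.7, 77.5 and 198 FPKM in KO livers and 101, 173 and 156 FPKM in WT livers, a difference of -2.65 (log2, SE 0.47, limma adjusted p = 4.06e-05). Scd1, which desaturates stearate, had 276, 293 and 496 FPKM in RE livers, 1296, 718 and 3639.7 FPKM in KO livers and 2330.4, 2816 and 2046 FPKM in WT livers, a difference of -2.79 (log2, SE 0.49, limma adjusted p = 4.05e-05). In each gene all 3 RE livers stood below all KO and all WT livers.

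Elovl6, which elongates palmitate, had 8.1996, 10.002 and 12.6 FPKM in RE livers, against 56.1, 77.7 and 96.3 FPKM in WT livers (-2.77, limma adjusted p = 1.23e-06). Fads2, which desaturates polyunsaturated fatty acids, had 142, 120.3 and 129 FPKM in RE livers, against 525, 478 and 381 FPKM in WT livers (-1.81, limma adjusted p = 3.32e-09). Dgat2, which completes triglyceride, had 164, 218 and 179 FPKM in RE livers, against 365, 323 and 358 FPKM in WT livers (-0.90, limma adjusted p = 1.05e-07). The RE livers were below the WT livers in all 3. Thrsp (-2.61), Mid1ip1 (-2.38), Acacb (-1.87), Me1 (-1.61), Acly (-1.46), Pklr (-1.34), Fads1 (-1.20), Acaca and Gpam (-1.01) were also called lower, and the call of Gpam ended without RE liver 0, RE liver 1, RE liver 2, WT liver 1 or WT liver 2 (adjusted p up to 0.154). The 1 member called higher, the acyltransferase Agpat2 (0.35), lost its call without RE liver 1, RE liver 2, WT liver 0 or WT liver 2 (adjusted p up to 0.125). Mlxipl, which encodes the glucose sensor ChREBP, had -0.29 (limma adjusted p = 0.347). Dgat1 had 0.03 and Elovl5 0.26, neither called.

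**Figure D3:**
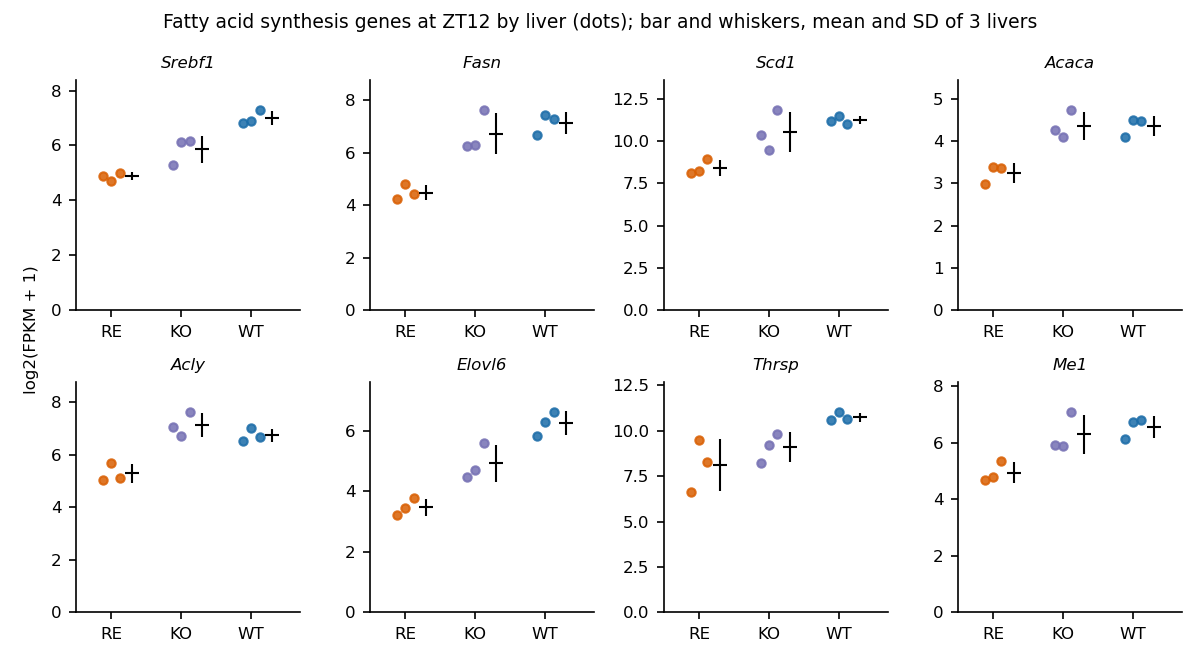
Each dot is 1 liver at ZT12, in the order RE, KO, WT, on a linear axis of log2(FPKM + 1) that starts at 0, with the mean and SD of the 3 livers beside the dots. RE livers are the lowest group in all 8 genes, and KO livers spread over a wider range than RE livers in genes such as Fasn and Scd1.

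Cholesterol genes did not move as 1 group. Of 25 members, 5 were called lower and 1 higher, against 9.26% and 9.62% of all genes, and the list median was -0.03. Insig1, which like Insig2 holds the SREBP precursors back, and Stard4, a carrier of sterols, were among those called lower (-0.996 and -0.76). The call of Insig1 ended without RE liver 0 or WT liver 1 (adjusted p up to 0.0705) and that of Stard4 without RE liver 0 or WT liver 1 (adjusted p up to 0.122). Hmgcs1, a synthase early in the pathway, was called higher (1.37), and its call ended without RE liver 1, RE liver 2, WT liver 0 or WT liver 2 (adjusted p up to 0.145). The count called lower was 2 without RE liver 0 or WT liver 1. Sqle, squalene epoxidase, had 0.02 and was not called.

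In fat oxidation, 6 of 30 members were called higher and 2 lower, against 9.62% and 9.26% of all genes, with a list median of 0.08. Ppara, the fatty acid receptor that drives this programme, had 20.3, 15.7 and 18.3 FPKM in RE livers, against 40.4, 37.5 and 34.9 FPKM in WT livers and was lower, with a difference of -1.02 (log2, SE 0.23, limma adjusted p = 0.000915). Pdk4, which turns pyruvate dehydrogenase off in fasting, had 5.78, 6.37 and 6.71 FPKM in RE livers, against 1.26, 0.933 and 1.38 FPKM in WT livers and was higher, with a difference of 1.74 (log2, SE 0.37, limma adjusted p = 0.000651). Neither gene overlapped between RE and WT. The lipid droplet genes Plin2 (0.97) and Plin5 (0.97) were called higher, a call that ended for Plin2 without RE liver 0 or WT liver 2 (adjusted p up to 0.103) and for Plin5 without RE liver 0 or WT liver 1 (adjusted p up to 0.0748). Acadvl (0.26) was called higher too, a call that ended without RE liver 0, RE liver 2, WT liver 1 or WT liver 2 (adjusted p up to 0.205). The count of members called higher was 2 without RE liver 0, 3 without WT liver 1 or WT liver 2, and 8 without RE liver 1. Cyp4a31 (2.21) was called higher, and it shares sequence with other Cyp4a genes. Cpt1a, the gate of mitochondrial oxidation, had -0.46, and Angptl4 -0.01, neither called.

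Among gluconeogenesis and fasting genes, 3 of 19 were called lower and 0 higher, where 9.26% and 9.62% of all genes were. Fbp1, fructose-1,6-bisphosphatase, had 679.9, 635 and 618 FPKM in RE livers, against 1021, 981 and 1045 FPKM in WT livers (-0.66, limma adjusted p = 0.000586), with every RE liver below every WT liver. Gpt2 (-0.74) and Foxo3 (-0.68) were called lower, and those calls ended for Gpt2 without RE liver 0 (log2 -0.50, adjusted p = 0.121) and for Foxo3 without RE liver 0, RE liver 2, WT liver 0 or WT liver 2 (adjusted p up to 0.0907). Without RE liver 0, 1 member was called lower and 2 higher. Pck1, the rate-limiting enzyme, had 0.01 and G6pc 0.16, neither called. Igfbp1, which binds insulin-like growth factors and rises in fasting, had 28.4, 221 and 131 FPKM in RE livers, against 30.4, 7.15 and 20.7 FPKM in WT livers, with RE liver 0 among the WT values. Its difference of 2.43 had a limma adjusted p of 0.0794 and was called without RE liver 0 (log2 3.27, adjusted p = 0.0308). Irs2, an insulin receptor substrate, had 0.97 (limma adjusted p = 0.0879) and a call without RE liver 0 (log2 1.52, adjusted p = 0.00825). Of 19 insulin and growth signalling genes, Irs1 was called higher (0.66) and Akt1 (-0.43) and Trib1 (-0.77) lower, both shares near or below those of all genes, and 4 were called lower on rescaling to equal totals. The call of Irs1 ended without RE liver 2 or WT liver 1 (adjusted p up to 0.0972), that of Akt1 without RE liver 2 (log2 -0.37, adjusted p = 0.0809) and that of Trib1 without RE liver 2, WT liver 0 or WT liver 1 (adjusted p up to 0.223).

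Among glycogen genes, some members rose and others fell. Of 18 members, 3 were called higher and 4 lower, against 9.62% and 9.26% of all genes. Both counts stayed the same without each liver in turn, and the count called lower was 7 on rescaling to equal totals and 6 with the 6 libraries fitted alone. Gys2, glycogen synthase of liver, had 37.5, 41.4 and 44.8 FPKM in RE livers, against 203, 156 and 202 FPKM in WT livers and was lower, with a difference of -2.15 (log2, SE 0.14, limma adjusted p = 6.05e-15). Ppp1r3c, a subunit that directs protein phosphatase to glycogen, had 72.8, 62.8 and 70.6 FPKM in RE livers, against 9.03, 9.702 and 9.28 FPKM in WT livers and was higher, with a difference of 2.75 (log2, SE 0.34, limma adjusted p = 6.32e-08). Their RE and WT livers were far apart, in opposite directions. Slc2a2, the glucose transporter GLUT2 (-1.07), and Gbe1, the branching enzyme (-0.75), were called lower, and Gckr (0.61) and Ldha (0.68) higher. The phosphorylase Pygl had 0.15 and was not called.

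**Figure D4:**
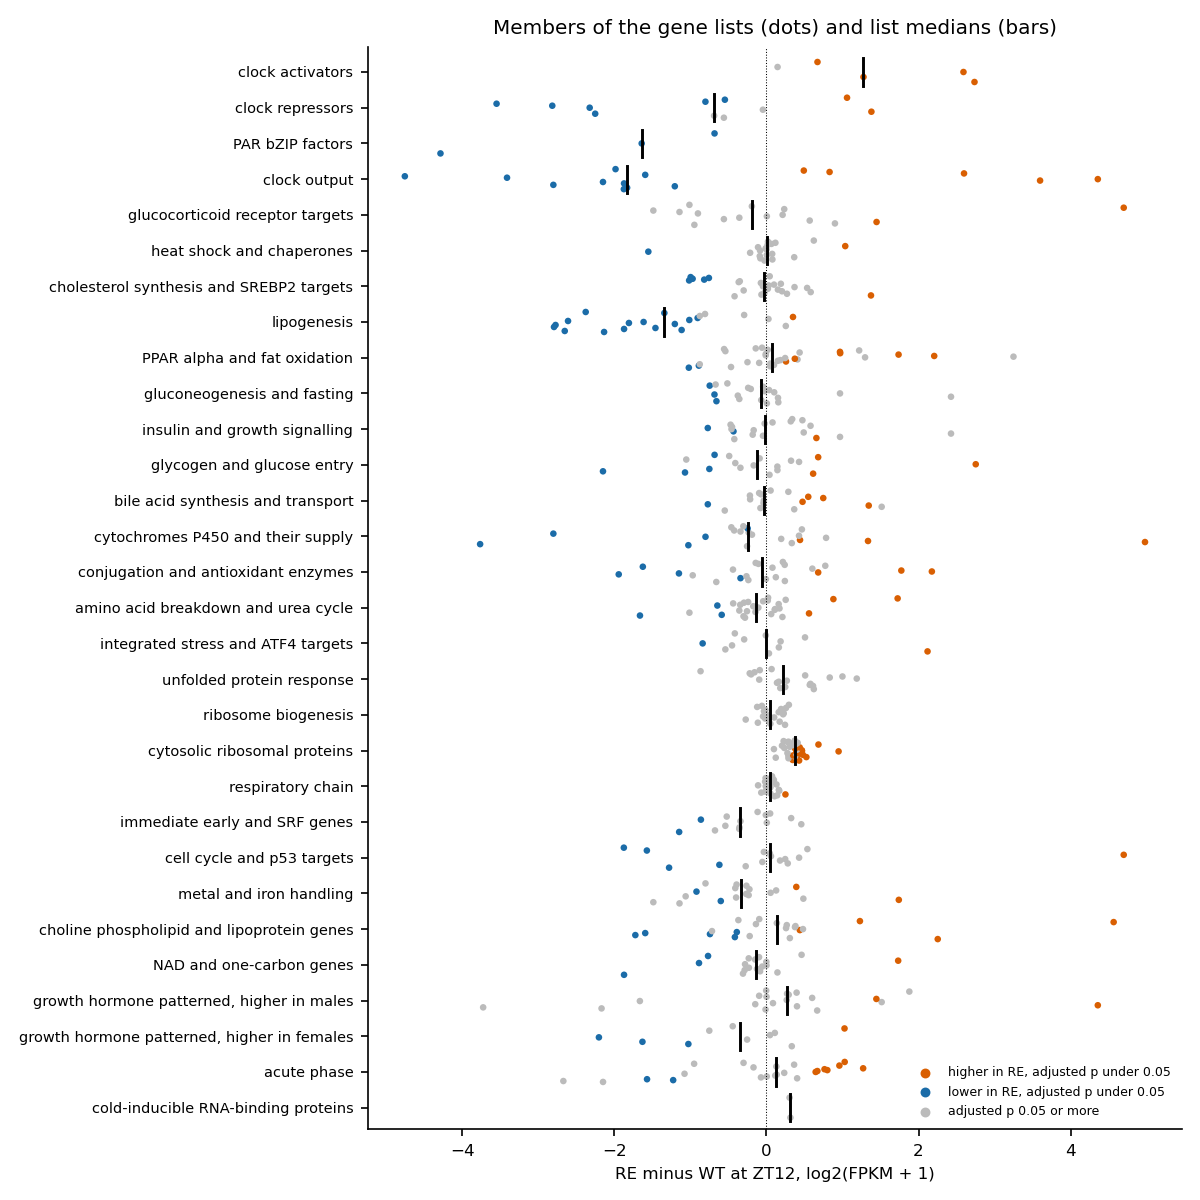
Each row is 1 gene list, each dot 1 tested member and each black bar the list median, with RE minus WT at ZT12 in log2(FPKM + 1) on the x axis. Orange dots are members called higher in RE, blue dots members called lower and grey dots members not called, and lipogenesis (median -1.34) and clock output (median -1.83) lie, with the 3 PAR bZIP factors (median -1.64), farthest left of 0.

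Of the cytochromes P450 and their supply, 3 of 20 were called higher and 5 lower (9.62% and 9.26% of all genes). Por, the reductase that gives electrons to every microsomal P450, had 33.9, 56.3 and 29.9 FPKM in RE livers, against 303, 285 and 239 FPKM in WT livers and was lower, with a difference of -2.80 (log2, SE 0.35, limma adjusted p = 6.60e-08), with no overlap. Cyp2c29 (1.34) and Cyp2d10 (0.44) were called higher with Cyp2b10, and Cyp2a4 (-1.03), Cyp3a13 (-0.80) and Fech (-0.25) lower with Cyp2a5 and Por. Cyp2a4 was near the floor in RE livers, at 0.0427, 0 and 0 FPKM, against 1.74, 1.10 and 0.528 FPKM in WT livers. The count called lower was 3 without RE liver 0, RE liver 2 or WT liver 1. The call of Cyp3a13 ended without RE liver 0, RE liver 1, RE liver 2 or WT liver 1 (adjusted p up to 0.108) and that of Fech without RE liver 0, RE liver 2, WT liver 0, WT liver 1 or WT liver 2 (adjusted p up to 0.187). Alas1, the rate-limiting enzyme of haem synthesis, had -0.23, and the receptors CAR (Nr1i3, -0.42) and PXR (Nr1i2, -0.34) were not called.

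Of 22 conjugation and antioxidant genes, 3 were called higher and 4 lower, against 9.62% and 9.26% of all genes. The glutathione transferases Gstm2 and Gstm3 were higher. Gstm2 had 439, 398 and 457 FPKM in RE livers, against 107, 117 and 67.2 FPKM in WT livers (2.18, limma adjusted p = 6.67e-10), and Gstm3 had a difference of 1.77. Gsta3, of another class, had 534, 596 and 625 FPKM in RE livers, against 1258, 1326 and 1304 FPKM in WT livers (-1.15, limma adjusted p = 0.000644), and Gsta2 had a difference of -1.94. The groups did not overlap in any of the 4, and transferases of 1 class share sequence. Gstm1 (0.68) was also called higher, and Sult1a1 (-1.62) and Txnrd1 (-0.34) lower, and the call of Txnrd1 ended without RE liver 2, WT liver 1 or WT liver 2 (adjusted p up to 0.149). The NRF2 gene Nfe2l2 had -0.26 and its target Nqo1 -0.66, neither called.

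In bile acid synthesis and transport, 4 of 17 members were called higher and 1 lower, where 9.62% and 9.26% of all genes were. Hsd3b7, an enzyme of the common part of synthesis, had 475, 447 and 487 FPKM in RE livers, against 209, 196 and 152 FPKM in WT livers and was higher, with a difference of 1.35 (log2, SE 0.14, limma adjusted p = 7.55e-10). Abcb11, the bile salt export pump, had 139, 135 and 124 FPKM in RE livers, against 82.03, 83.2 and 71.4 FPKM in WT livers (0.75, limma adjusted p = 0.000402). The RE livers lay above the WT livers in both. Baat (0.48) and Abcb4 (0.55) were also called higher, and the call of Abcb4 ended without RE liver 2 or WT liver 1 (adjusted p up to 0.0633). On rescaling to equal totals the calls of Baat (0.34, adjusted p = 0.0595) and Abcb4 (0.42, adjusted p = 0.109) ended, which left 2 members called higher. Akr1d1 was called lower (-0.77), ending without RE liver 0, WT liver 1 or WT liver 2 (adjusted p up to 0.0822). Cyp7a1, the rate-limiting enzyme, had 30.1, 92.7 and 50.2 FPKM in RE livers, against 70.6, 66.1 and 95.8 FPKM in WT livers. Its groups overlapped, and its difference of -0.55 was not called (limma adjusted p = 0.551).

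Amino acid breakdown and the urea cycle had 3 of 29 members called higher and 3 lower, about the share of all genes (9.62% and 9.26%). Ddc, aromatic amino acid decarboxylase, had 75.8, 103 and 89.1 FPKM in RE livers, against 22.4, 25.9 and 30.8 FPKM in WT livers and was higher, with a difference of 1.73 (log2, SE 0.22, limma adjusted p = 1.26e-07). Asl, which makes arginine in the urea cycle, had 138, 239 and 169 FPKM in RE livers, against 608, 529 and 558 FPKM in WT livers and was lower, with a difference of -1.66 (log2, SE 0.29, limma adjusted p = 2.78e-05). Cbs (0.88) and the ornithine carrier Slc25a15 (0.56) were higher, and Arg1 (-0.59) and Gls2 (-0.64) lower. The call of Arg1 ended without RE liver 0, RE liver 2, WT liver 0, WT liver 1 or WT liver 2 (adjusted p up to 0.178) and that of Gls2 without RE liver 0, RE liver 2 or WT liver 0 (adjusted p up to 0.164). The count called lower was 1 without RE liver 0, RE liver 2 or WT liver 0, and 6 without RE liver 1 or on rescaling to equal totals.

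Of 18 NAD and one-carbon genes, 1 was called higher and 3 lower (9.62% and 9.26% of all genes). On rescaling to equal totals 6 were called lower, and 5 when the genes listed at 0 were left out first. Nampt, the rate-limiting enzyme of NAD salvage, had 6.796, 9.86 and 8.92 FPKM in RE livers, against 29.1, 34.7 and 37.3 FPKM in WT livers and was lower, with a difference of -1.87 (log2, SE 0.16, limma adjusted p = 1.05e-11). Bhmt, which remethylates homocysteine with betaine, had 3502, 7026 and 4919.7 FPKM in RE livers, against 1493, 2135 and 1034 FPKM in WT livers and was higher, with a difference of 1.73 (log2, SE 0.29, limma adjusted p = 1.47e-05). Neither overlapped between the groups. Mthfd1l (-0.77) and Ahcy (-0.89) were called lower, Ahcy until it was refitted without RE liver 0 (log2 -0.75, adjusted p = 0.0563).

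Of 21 choline phospholipid and lipoprotein genes, 4 were called higher and 5 lower, against 9.62% and 9.26% of all genes. Chka, choline kinase alpha, had 27.6, 20.96 and 30.4 FPKM in RE livers, against 3.51, 4.95 and 5.7997 FPKM in WT livers and was higher, with a difference of 2.25 (log2, SE 0.26, limma adjusted p = 1.02e-08). Lipc, hepatic lipase, had 276, 222 and 248 FPKM in RE livers, against 115, 96.8 and 104 FPKM in WT livers and was higher, with a difference of 1.23 (log2, SE 0.13, limma adjusted p = 7.74e-10). Lpl, given above, was the largest rise of the list. Mfsd2a, a transporter of lysophospholipids, was called lower (-1.72), a call that ended without RE liver 1, RE liver 2, WT liver 0 or WT liver 1 (adjusted p up to 0.144). Lpcat3 (-0.74), Pcyt1a (-0.41), Gpcpd1 and Etnk1 (-0.39) were called lower, the call of Etnk1 ending without RE liver 0, RE liver 2, WT liver 1 or WT liver 2 (adjusted p up to 0.219). The count called lower was 3 without RE liver 2 or WT liver 1. The last member called higher was Apoa1 (0.44), whose call ended without RE liver 0, RE liver 2, WT liver 0, WT liver 1 or WT liver 2 (adjusted p up to 0.227), and Apob (0.38) and Mttp (0.14) were not called.

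Cytosolic ribosomal protein genes stood slightly higher in RE livers. Of 36 members, 17 were called higher and 0 lower, against 9.62% and 9.26% of all genes, with a list median of 0.38 and a range of 0.10 to 0.95. Rps12 had 1277, 1025 and 1307 FPKM in RE livers, against 773, 687 and 775 FPKM in WT livers (0.68, limma adjusted p = 0.000760), and Rpl15 had 186, 176 and 195 FPKM in RE livers, against 129, 131 and 139 FPKM in WT livers (0.48, limma adjusted p = 0.000388). RE livers were above WT livers in both. The count rested on single livers: it was 3 without RE liver 2, 5 without RE liver 0, 6 without WT liver 1, 7 without WT liver 0, 8 without WT liver 2 and 21 without RE liver 1. Rescaled to equal totals, 9 members were called and the median was 0.25. Of 20 ribosome biogenesis genes and 20 unfolded protein response genes, 0 were called in either direction. With the 6 libraries fitted alone 4 unfolded protein response genes were called higher, and with RE and WT libraries alone 1, Calr (0.58, adjusted p = 0.0465), a calcium-binding chaperone. The chaperone Hspa5 (BiP) had 351, 482 and 430.3 FPKM in RE livers, against 187, 289 and 367 FPKM in WT livers, with overlap, and a difference of 0.62 (limma adjusted p = 0.193). Of 23 respiratory chain genes, Ndufa9 alone was called (0.25), and its call ended without RE liver 0, RE liver 2, WT liver 1 or WT liver 2 (adjusted p up to 0.104).

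Of the stress response lists, no count is read as a result about the list, since 18.9% of all genes were called. Of 19 heat shock and chaperone genes, Dnaja4 was called higher (1.04) and Hspb1 lower. Hspb1, a small heat shock protein, had 2.24, 3.36 and 3.11 FPKM in RE livers, against 9.15, 8.76 and 13.8 FPKM in WT livers (-1.55, limma adjusted p = 0.000712), with no overlap, while the major chaperones Hspa8 (0.01) and Hsp90ab1 (-0.09) were not called. Of 11 integrated stress genes, Atf5, a transcription factor of the mitochondrial stress response, had 313, 274 and 302 FPKM in RE livers, against 80.9, 55.7 and 67.6 FPKM in WT livers and was higher, with a difference of 2.12 (log2, SE 0.23, limma adjusted p = 2.51e-09). Asns was near the floor in RE livers, at 0.199, 0.0728 and 0.174 FPKM, against 0.241, 0.963 and 2.54 FPKM in WT livers. It was called lower (-0.84), which ended without RE liver 1 or WT liver 2 (adjusted p up to 0.2598). On rescaling to equal totals 2 members were called lower. Atf4 had 0.03. Neither cold-inducible gene was called, with 0.31 for Rbm3 and 0.32 for Cirbp.

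Of 15 glucocorticoid receptor targets, Cdkn1a and Sgk1 were called higher and 0 lower (9.62% and 9.26% of all genes). Without RE liver 1, 2 were called lower. Sgk1, a kinase of salt and insulin signalling, had 15.1, 12.5 and 38.01 FPKM in RE livers, against 7.77, 4.395 and 7.82 FPKM in WT livers (1.45, limma adjusted p = 0.0220), with RE liver 2 far above the others, and its call ended without RE liver 2 or WT liver 1 (adjusted p up to 0.214). The targets Fkbp5 (-0.95) and Tsc22d3 (0.90) had differences of opposite sign and were not called, but each was called in 1 refit, Fkbp5 without RE liver 1 (log2 -1.30, adjusted p = 0.0486) and Tsc22d3 without WT liver 2 (log2 1.19, adjusted p = 0.0369). The metallothioneins Mt1 (-1.14) and Mt2 (-1.49) were not called.

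Among 15 cell cycle and p53 target genes, Cdkn1a was called higher and 4 lower (9.62% and 9.26% of all genes). Gadd45a, a stress-induced growth arrest gene, had 0.693, 0.513 and 1.57 FPKM in RE livers, against 4.12, 4.14 and 5.57 FPKM in WT livers (-1.57, limma adjusted p = 6.06e-05), and Wee1 is given above. Ccnd1 (-1.28) and Ccne1 (-0.62) were called lower, and those calls ended for Ccnd1 without RE liver 1, RE liver 2, WT liver 0 or WT liver 1 (adjusted p up to 0.119) and for Ccne1 without RE liver 1, RE liver 2, WT liver 0 or WT liver 1 (adjusted p up to 0.174). The count called lower was 2 without any 1 of RE liver 1, RE liver 2, WT liver 0 and WT liver 1. The p53 targets Mdm2 (0.05) and Ccng1 (-0.03) and the replication genes Pcna (0.06) and Mcm2 (0.18) were not called. Of 14 immediate early genes, Jun (-1.15) and Zfp36 (-0.86) were called lower, Jun until refitted without RE liver 2, WT liver 0 or WT liver 1 (adjusted p up to 0.154) and Zfp36 until refitted without RE liver 0, RE liver 1, RE liver 2, WT liver 0 or WT liver 2 (adjusted p up to 0.346), where it was -0.48 without WT liver 0.

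Of 23 acute phase genes, 7 were called higher and 2 lower, against 9.62% and 9.26% of all genes. The count called lower was 4 on rescaling to equal totals or with the 6 libraries alone, 5 with RE and WT libraries alone, 0 without RE liver 0 and 1 without any other liver. Itih3 had 540.3, 521 and 537 FPKM in RE livers, against 207, 237 and 217 FPKM in WT livers (1.27, limma adjusted p = 9.12e-09), and ceruloplasmin (Cp) had 429, 421 and 457 FPKM in RE livers, against 204, 217 and 253 FPKM in WT livers (0.96, limma adjusted p = 5.36e-05), both without overlap. The fibrinogen chains Fga (0.65), Fgb (0.67) and Fgg (0.80) were called higher together with Lbp (1.03) and Apcs (0.76), the last ending without RE liver 2, WT liver 0 or WT liver 2 (adjusted p up to 0.0939). Saa3 (-1.23) and Saa4 (-1.57) were called lower, and those calls ended for Saa3 without RE liver 0, RE liver 1, WT liver 0 or WT liver 2 (adjusted p up to 0.196) and for Saa4 without RE liver 0, RE liver 2 or WT liver 1 (adjusted p up to 0.119). Serum amyloid genes share sequence.

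Of 20 male-patterned genes that follow growth hormone, Elovl3 and Hsd3b5 were called higher and 0 lower, the first near the 9.62% of all genes. The count called higher was 4 with the 6 libraries alone and 4 without RE liver 0, where Cyp7b1 (2.04, adjusted p = 0.0477) and Moxd1 (3.41, adjusted p = 0.0212) joined, and Mup16 was called lower without RE liver 2 (-5.60, adjusted p = 0.0362). Hsd3b5, a steroid dehydrogenase of male liver, had 322, 375 and 422 FPKM in RE livers, against 139.8, 115 and 155 FPKM in WT livers (1.45, limma adjusted p = 0.000199). Of 10 tested female-patterned genes, 1 was called higher and 3 lower, against 9.62% and 9.26% of all genes. Prlr, the prolactin receptor, was higher (1.03) and Acot3 (-2.20), Cyp17a1 (-1.63) and Cyp2a4, near the floor in RE livers, lower. The call of Cyp17a1 ended without RE liver 2 or WT liver 0 (adjusted p up to 0.0964), and 5 were called lower with the 6 libraries alone. Of 18 metal and iron genes, 2 were called higher and 2 lower, near the 9.62% and 9.26% of all genes. The manganese exporter Slc30a10 had 18.6, 16.4 and 17.1 FPKM in RE livers, against 3.49, 4.08 and 6.22 FPKM in WT livers and was higher, with a difference of 1.74 (log2, SE 0.14, limma adjusted p = 1.61e-12), and Hfe was called higher (0.39). The iron exporter Slc40a1 (-0.92) and the zinc exporter Slc30a1 (-0.60) were called lower, Slc40a1 until refitted without RE liver 1 or RE liver 2 (adjusted p up to 0.0671) and Slc30a1 until refitted without RE liver 0, RE liver 1, RE liver 2, WT liver 0 or WT liver 2 (adjusted p up to 0.1699). The count of metal and iron genes called lower was 4 on rescaling to equal totals, 5 with the 6 libraries alone, 0 without RE liver 1 or RE liver 2 and 1 without RE liver 0, WT liver 0 or WT liver 2. Hamp, the iron hormone hepcidin, had -1.06 (limma adjusted p = 0.204).

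Markers of the cell types in liver were read in the same fit, where 9.62% of all genes were called higher and 9.26% lower. Marker counts near those shares are not read as results about a cell type. In bulk tissue, fewer cells of a type and less RNA per cell cannot be told apart. Of 10 hepatocyte markers, Apoa1, Apoa2, Ahsg and Fgb were called higher besides Alb and Ambp lower, with differences of -0.28 to 0.67, and those calls ended for Apoa1 without RE liver 0, RE liver 2, WT liver 0, WT liver 1 or WT liver 2 (adjusted p up to 0.227), for Apoa2 without RE liver 0, RE liver 2, WT liver 1 or WT liver 2 (adjusted p up to 0.158), for Ahsg without any 1 of the 6 livers (adjusted p up to 0.1397) and for Ambp without RE liver 1, RE liver 2, WT liver 0 or WT liver 2 (adjusted p up to 0.165). The count called higher, Alb included, was 2 without RE liver 0, RE liver 2, WT liver 1 or WT liver 2, and 3 without WT liver 0 or on rescaling to equal totals. Serpina1c, another of the 10, was listed at 0 in RE liver 0. Of 10 markers of periportal hepatocytes, Aldh1b1 (-1.13), Gls2 (-0.64), Hsd17b13 (-0.60) and Arg1 (-0.59) were called lower and 0 higher, a count that was 1 without WT liver 0 and 2 without RE liver 0 or RE liver 2. The call of Hsd17b13 ended without RE liver 1, WT liver 0 or WT liver 2 (adjusted p up to 0.124), and those of Gls2 and Arg1 as given above. The summed level was 2509 to 3823 FPKM in RE livers and 3367 to 4655 FPKM in WT livers. Of 12 pericentral markers, Lect2 (0.80) and Gulo (0.52) were called higher and the glutamate transporter Slc1a2 (-1.08) lower, while Glul (-0.34) and Cyp2e1 (0.19) were not called.

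Kupffer cell markers varied widely among the RE livers themselves. The 12 genes summed to 256, 64.3 and 96.3 FPKM in RE livers, against 205, 189.6 and 164 FPKM in WT livers, with 0 of 12 at 0 in every liver. RE liver 0 was the highest of the 6 and the other RE livers were the lowest. No marker was called, with a list median of -0.57, but 10 of 12 were called lower without RE liver 0. In that refit 848 of the 10932 tested genes were called lower. C1qb, for example, had 43.8, 11.3 and 17.05 FPKM in RE livers, against 33.8, 34.9 and 27.4 FPKM in WT livers, and its difference of -0.61 (limma adjusted p = 0.231) was called without RE liver 0 (log2 -1.14, adjusted p = 0.0182). Vsig4 was called without RE liver 0 (log2 -1.04, adjusted p = 0.00297). The part of these cells in other differences between RE and WT was not tested.

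Of 6 tested bile duct markers, Spp1 and Sox9 were called higher and 0 lower, against 9.62% and 9.26% of all genes. Spp1, osteopontin, had 59.1, 142 and 123 FPKM in RE livers, against 16.7, 23.02 and 22.7 FPKM in WT livers (2.24, limma adjusted p = 0.00942), and Sox9 had 2.32, 2.71 and 2.13 FPKM in RE livers, against 0.729, 0.891 and 1.19 FPKM in WT livers (0.81, limma adjusted p = 0.00581). The groups did not overlap in either. The duct keratins Krt19 (0.09) and Krt7 (0.07) and Epcam (0.14) were not called. The sum of the markers was 62.7 to 149 FPKM in RE livers and 19.3 to 26.9 FPKM in WT livers, nearly all of it Spp1. Of 13 endothelial markers, Stab2 was called higher (0.62), and of 13 stellate and fibroblast markers Acta2 lower (-1.09), a call that ended without WT liver 1 (log2 -0.31, adjusted p = 0.428). None of the 5 tested lymphocyte, 2 neutrophil, 4 red cell, 1 muscle and 5 fat markers was called. Of the pancreas markers Cela1 was called higher (1.62), while 9 of the 13 were at 0 in all 6 livers, and of the intestine markers Tff3 alone was called, with 4 of 13 at 0 in all 6.

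How far these differences belong to ZT12 was tested by setting RE minus WT at ZT12 against the mean of RE minus WT at the other 5 times, which tests a difference between times in place of comparing calls. In 197 genes (1.8% of those tested) the ZT12 difference stood apart from that mean, 98 of them with a more positive value at ZT12 (0.896%) and 99 with a more negative one (0.906%). Standing apart from the mean does not make a difference particular to ZT12, since a neighbouring time can differ as much or more. The count was 120 without RE liver 2, 121 without RE liver 0 and 129 without WT liver 0, and 245 without RE liver 1. For most genes called at ZT12 this test therefore gave no call, which does not show that their differences are equal at all times.

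Among clock genes the more negative ones included Dbp, by -2.79 (log2, SE 0.29, limma adjusted p = 1.99e-08), Ciart, by -2.42 (log2, SE 0.17, limma adjusted p = 7.43e-13), Per3 (-1.47, limma adjusted p = 1.23e-08) and Tef (-1.32, limma adjusted p = 3.36e-06). Dbp differed by 0.98, -2.51, -4.83, -4.28, -1.23 and 0.11 at ZT0, ZT4, ZT8, ZT12, ZT16 and ZT20, so RE livers were below WT livers from ZT4 to ZT16 and not at ZT0 and ZT20. Arntl stood apart in the other direction (1.43, limma adjusted p = 3.76e-06), with 0.49, 1.90, 3.10, 2.74, 0.76 and 0.29 at the same times. Clock was similar (0.92). Nr1d1 (-0.01, limma adjusted p = 0.997) and Npas2 (0.23, limma adjusted p = 0.869) did not pass this test.

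Outside the clock activators, repressors and PAR bZIP factors, the more positive values were led by Elovl3, by 3.20 (log2, SE 0.48, limma adjusted p = 3.73e-05). Its difference was -0.28, 1.33, 2.48, 4.36, 1.89 and 0.35 from ZT0 to ZT20, and at ZT12 WT livers were at their lowest. Insig2 (2.50), Cdkn1a (2.41), Spon2 (2.19), Ppp1r3c (2.11), the tubulin Tubb2a (2.00), the tight junction gene Cldn1 (1.86) and the mitochondrial protease gene Clpx (1.85) followed, with limma adjusted p values of 8.09e-10 to 0.00574. Clpx had 168, 175 and 189 FPKM in RE livers, against 18.9, 16.6 and 21.9 FPKM in WT livers at ZT12. Cldn1 differed by 2.10 at ZT12 and by -0.17 to 1.03 at the other times. Elovl3, Insig2 and Tubb2a were listed above as clock output.

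The more negative values outside those clock lists included Upp2 (-2.08, limma adjusted p = 0.00449), Cyp2a5 (-1.77), Por (-1.76), Elovl6 (-1.74) and Nrg4 (-1.45, limma adjusted p = 2.42e-06), which encodes a growth factor that liver and fat secrete. Upp2 and Por were listed as clock output. Nrg4 had 0.839, 0.784 and 1.33 FPKM in RE livers, against 9.23, 8.19 and 7.44 FPKM in WT livers at ZT12. The calls of Upp2 ended without RE liver 0 (adjusted p = 0.0523), of Por without RE liver 2 (adjusted p = 0.0501), of Elovl6 without RE liver 0, WT liver 1 or WT liver 2 (adjusted p up to 0.115) and of Cyp2a5 without any liver but RE liver 1 (adjusted p up to 0.155). Por differed by -0.25, -1.03, -1.54, -2.80, -1.34 and -1.08 from ZT0 to ZT20, negative at every time and largest at ZT12.

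**Figure D5:**
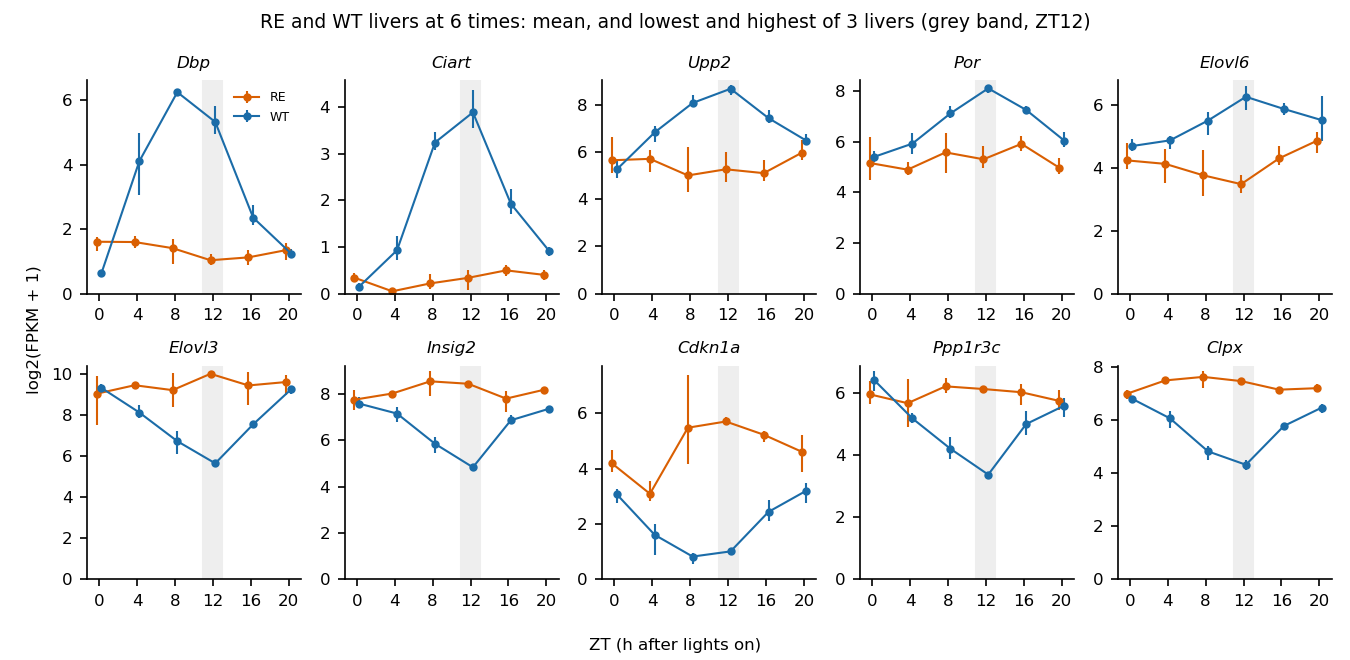
Each panel shows 1 gene over ZT0 to ZT20 on the x axis and log2(FPKM + 1) on the y axis, with the mean and the lowest and highest of 3 livers for RE (orange) and WT (blue). At ZT12 (grey band) WT livers are near the top of their range in Dbp, Ciart, Upp2, Por and Elovl6 and at the bottom in Elovl3, Insig2, Ppp1r3c and Clpx, while RE livers change less over the day in most panels.

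KO livers, in which by design neither liver nor brain has Bmal1, were set beside the RE livers at the same time. Between them 51 genes were called (0.467%), 7 higher in RE (0.064%) and 44 lower (0.402%), with 1371 at an unadjusted p under 0.05, and this comparison uses the same RE livers as the one above. Of the clock activators, repressors and PAR bZIP factors, 0 were called. Dbp had 1.198, 1.39 and 2.22 FPKM in KO livers, close to its RE values, and Arntl had 11.9, 10.5 and 12.02 FPKM in KO livers, all above its RE livers. Per1 had 3.80, 2.51 and 1.45 FPKM in KO livers, all below its RE livers (RE minus KO 1.11, limma adjusted p = 0.154). The lack of a call does not show that the levels are equal. The fatty acid synthesis list had 6 of 21 members lower in RE than in KO, among them Fasn (-2.24, limma adjusted p = 0.0232), Scd1 (-2.13) and Acly (-1.84), and the cholesterol list 5 of 25. Srebf1 had a difference of -0.997 (limma adjusted p = 0.263) against KO. Apoa1, the main protein of high-density lipoprotein, was 1 of the 7 genes higher in RE than in KO (0.68).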

How the data were processed

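Liver RNA was sequenced, and the authors deposited FPKM values per gene symbol for 54 libraries, aligned with TopHat to mm10 per the submitters' processing notes. The sources used here do not name the TopHat version, the FPKM tool or the annotation. The table gives no counts, so absolute depth is unknown. Steps between low values put the depth of the 6 libraries at 0.948 to 1.24 times that of WT liver 0. That estimate is rough, since in the other livers only 4.80% to 9.57% of low-level genes lay near the most common ratio. Columns carry genotype, time and a number from 0 that matches no numbered title, so each was placed in its group only. Whether livers came from separate animals is not stated, so p-values measure the spread between these samples.

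From the FPKM values, log2(FPKM + 1) was fitted with limma 3.58.1 (R 4.3.3) over all 18 groups, with 36 residual degrees of freedom, a mean-variance trend and Benjamini-Hochberg adjustment over the 10932 genes whose mean reached 1 FPKM in any group. A further 13414 genes were not tested, 5619 of them at 0 throughout. The code was checked on simulated data. Genes named by rule were the clock genes, the 12 largest called rises and falls without overlap at 5 FPKM or more, up to 4 called members of each list, by adjusted p (2 by level where none was called), and the 8 largest in each direction for ZT12 against the other times. Other named genes were chosen after their values were seen. The comparison and all lists were chosen with earlier results of these data known. Some genes that the rule names are not reported here. Listed genes with no row (7, such as Noct) were not used here. Alternatives covered the pseudocount, filter, scaling, libraries fitted and leaving out each liver.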

Additional observations from a re-analysis of the deposited data

Results flagged for a closer look

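In 197 genes the RE minus WT difference at ZT12 differed from the mean of RE minus WT at the other 5 times by limma adjusted p, and 32 of them are named in the text. In 22 of the 32 the call held without each liver in turn, and in 10 it ended without at least 1. The values that follow are that difference between times, on the log2 scale. They set ZT12 against a mean and do not make ZT12 the time of the largest difference. Dbp differed by -4.83 at ZT8 and -4.28 at ZT12, Arntl by 3.10 and 2.74, and Cdkn1a by 4.66 and 4.70. Cyp2a5 differed by -3.76 at both ZT12 and ZT16. Elovl3 (2.48 at ZT8, 4.36 at ZT12) and Insig2 (2.69 and 3.60) were larger at ZT12. ZT12 was not tested against ZT8 or ZT16 alone.

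More positive at ZT12 were Elovl3 (3.20), Insig2 (2.50), Cdkn1a (2.41), Spon2 (2.19), Ppp1r3c (2.11), Tubb2a (2.00), Cldn1 (1.86) and Clpx (1.85). Smaller positive values belonged to Defb1 (1.45), Arntl (1.43), Atf5 (1.395), Chka (1.21), Slc30a10 (1.17), Clock (0.92) and Hsd3b7 (0.86). The call of Chka ended without RE liver 0, RE liver 2 or WT liver 0, and that of Clock without WT liver 0.

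More negative at ZT12 were Dbp (-2.79), Ciart (-2.42), Upp2 (-2.08), Cyp2a5 (-1.77), Por (-1.76), Elovl6 (-1.74), Per3 (-1.47), Nrg4 (-1.45), Wee1 (-1.34), Tef (-1.32), Nampt (-1.16) and Gys2 (-1.04). Smaller negative values belonged to Gls2 (-0.83), Fads2 (-0.81), Mthfd1l (-0.68), Cyp2a4 (-0.66) and Dgat2 (-0.46). The call of Dgat2 ended without any liver but RE liver 1 and WT liver 1, those of Fads2 and Cyp2a4 without any but WT liver 2, and that of Gls2 without any but RE liver 1.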

How the results depend on the processing

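Of 143 genes named by the rule, 122 were called for RE against WT at ZT12. In 94 of these the call kept its direction and its side of the threshold under every one of the 16 alternatives that tested the gene, and in 28 it was lost under at least 1. With the filter of 5 FPKM, 7 of the 122 were not tested. Apart from leaving out livers, the lost calls were those of Nfil3, Sgk1, Gpt2, Irs1, Trib1, Asns, Zfp36, Apoa2, Ambp and Acta2 with the 6 libraries alone, Bhlhe40, Jun, Zfp36, Slc30a1, Apoa2, Ambp and Arg1 with no filter, Zfp36 with RE and WT libraries alone, and Baat, Abcb4 and Ndufa9 on rescaling. The number of genes called ran from 1396 to 1878 without 1 liver, and was 1675 with a filter of 5 FPKM, 2027 with no filter, 2044 with RE and WT libraries alone and 1977 with the 6 libraries alone. Rescaling to equal totals gave 628 higher and 1560 lower, and rescaling without the genes listed at 0 gave 693 higher. The count standing apart at ZT12 ran from 120 to 245 without 1 liver. Differences not called reversed in sign without single livers, which put Cry2 between -0.16 and 0.11 (0.10 without WT liver 0, 0.11 without RE liver 0), S100a8 between -0.60 and 0.62 (-0.60 without WT liver 2, -0.19 without RE liver 2, -0.02 without RE liver 1) and S100a9 between -0.61 and 0.18 (0.18 without WT liver 1, 0.11 without RE liver 1), and the cause was not tested. No paired analysis was possible because the columns carry no number that ties them to the numbered samples. With 3 livers a group and no counts, small differences of genes at low FPKM could be missed, and those near the scaling shift depend on the scaling.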
